A study of Rattus norvegicus with 12 samples.

Results

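Macrophages of the kidney take up dying cells, debris and free hemoglobin complexes, and the 10 genes Csf1, Csf1r, Adgre1, Aif1, Cd163, Mrc1, Marco, Folr2, Timd4 and Cd5l mark these cells or the growth factor they live on. They were chosen by name, and 9 of the 10 had 1 entry each in both deposited expression tables, out of 22132 entries in one table (control and adenine) and 32623 in the other (sham and UUO). Timd4, a receptor for phosphatidylserine on dying cells, had no entry under that symbol and is only named here. Of the other 9 genes, 7 had FPKM values of 0.5 or more in 3 or more of the 6 rats of each table and were tested, whereas Cd5l and Marco did not in either table.

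RNA was sequenced from kidneys of 12 wild-type male SD rats, bought at 8 weeks of age, with 3 rats in each group. The adenine group received an adenine suspension by gavage and the control group saline, daily for 3 weeks in both cases. The sham group was operated on without ligation, and in the UUO group (unilateral ureteral obstruction) the left ureter was tied off 2 weeks before the tissue was taken. Both models start from injury to tubules, by a toxic compound in one case and by blocked urine flow in the other, and the question here is how genes of resident and scavenger macrophages differed between diseased and undiseased kidneys within each model. Kidney tissue was used, so a gene level reflects many cell types, and the part of the kidney that was taken is not stated.

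Macrophages depend on the receptor tyrosine kinase CSF1R, which is bound by the cytokines CSF1 and IL-34, and the transcription factor PU.1, encoded by Spi1, switches on Csf1r and other genes of the lineage. Resident macrophages settle in tissues early in life or derive from monocytes that adapt to the tissue, and scavenger receptors on their surface bind modified proteins, sugars and particles. In the rat, the antibody ED2 against CD163 has long been used to stain tissue macrophages, while AIF1 (also called IBA1) and ADGRE1 (F4/80) serve as more general markers.

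The reference sequence before the start of a gene is shown for Cd163, Folr2 and Mrc1, the genes with the largest rises in both models. It was taken from RefSeq on the build GRCr8, which held such a sequence for 8 of the 10 genes, and each stretch covers the 250 bases before the start, written 5′ to 3′ on the strand of the gene. Capitals mark the letters GAGGAA, a sequence that PU.1 binds (the PU box), or their reverse complement TTCCTC. Shorter stretches within it, such as GGAA, were not marked and also occur in the windows of Cd163 and Folr2.
Cd163, chr4:158770524-158770773 on the plus strand: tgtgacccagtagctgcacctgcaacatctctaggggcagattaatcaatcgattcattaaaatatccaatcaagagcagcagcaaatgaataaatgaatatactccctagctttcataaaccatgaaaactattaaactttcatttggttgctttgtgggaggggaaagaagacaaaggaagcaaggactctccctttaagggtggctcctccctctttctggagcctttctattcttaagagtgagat
Folr2, chr1:165630383-165630632 on the minus strand: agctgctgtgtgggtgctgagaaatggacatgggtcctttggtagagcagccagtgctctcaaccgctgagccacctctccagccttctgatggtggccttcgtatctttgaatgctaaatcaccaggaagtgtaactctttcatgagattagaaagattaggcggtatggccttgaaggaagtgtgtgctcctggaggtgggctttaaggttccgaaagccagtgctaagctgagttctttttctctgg
Mrc1, chr17:82157475-82157724 on the plus strand: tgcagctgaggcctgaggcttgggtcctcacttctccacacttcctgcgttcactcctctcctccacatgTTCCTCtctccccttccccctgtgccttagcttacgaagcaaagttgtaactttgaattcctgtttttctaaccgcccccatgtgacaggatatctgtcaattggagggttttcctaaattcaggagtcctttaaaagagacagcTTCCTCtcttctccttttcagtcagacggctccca
The full letters GAGGAA or TTCCTC occurred 2 times before Mrc1, beginning 180 and 35 bases before the start. They were not found in the windows of Cd163 and Folr2. Among the members with a sequence, 5 of the 8 windows held them on either strand (Csf1r, Adgre1, Mrc1, Marco and Cd5l), against 23.3% of the 33469 promoters in the RefSeq table. A match of letters is a description of the sequence and does not show binding.

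Expression was deposited as FPKM, that is, fragments per kilobase of transcript and scaled to the mapped fragments of the sample. FPKM summed over a sample lay between 468389 and 582725 in the first table and between 528811 and 630244 in the second. Lrp2 and Slc34a1, genes of the proximal tubule, had mean FPKM of 111 and 724 in the control group and 169 and 732 in the sham group. FPKM carries no read counts, and low values shared too few common ratios between samples to recover them (at most 2.26% of genes under an FPKM of 0.25 shared one), so the depth behind each value is unknown. Each table was fitted on its own with limma on log2(FPKM + 0.1), where limma is a linear model per gene whose variances borrow information across genes. A gene was called a DEG when its Benjamini-Hochberg adjusted p over all tested genes was under 0.05 and its absolute log2 fold change at least 2, the thresholds used in the study.

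All 7 tested members were upregulated DEGs in the adenine model, where 10.7% of the 15029 tested genes were upregulated DEGs and 5.03% downregulated DEGs. The same count, 7 of 7, was found in the UUO model, where 13.2% of 15043 tested genes were upregulated and 4.21% downregulated. By adjusted p alone, 39.6% of the tested genes in the first model and 56.1% in the second were upregulated. Cd163 and Mrc1 passed the minimum FPKM only through their diseased samples, so that they were tested because they were high there. In both models the 3 diseased samples lay above the 3 undiseased ones for each of these 7 genes, which was the case for 45% and 60% of all tested genes. Across all tested genes the median change was itself above 0 on the log2 scale, at 0.30 in the adenine and 0.62 in the UUO model. After median-of-ratios scaling, which brings these medians to 0.0014 and 0.023, 6 members in the adenine and 5 in the UUO model remained DEGs, with 8.56% and 8.09% of all tested genes upregulated. Aif1 in both models and Csf1 in the UUO model then had log2 fold changes of 1.81, 1.96 and 1.73, with adjusted p still under the threshold. In tissue RNA, more macrophages and more RNA of a gene per macrophage cannot be told apart.

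**Figure D1:**
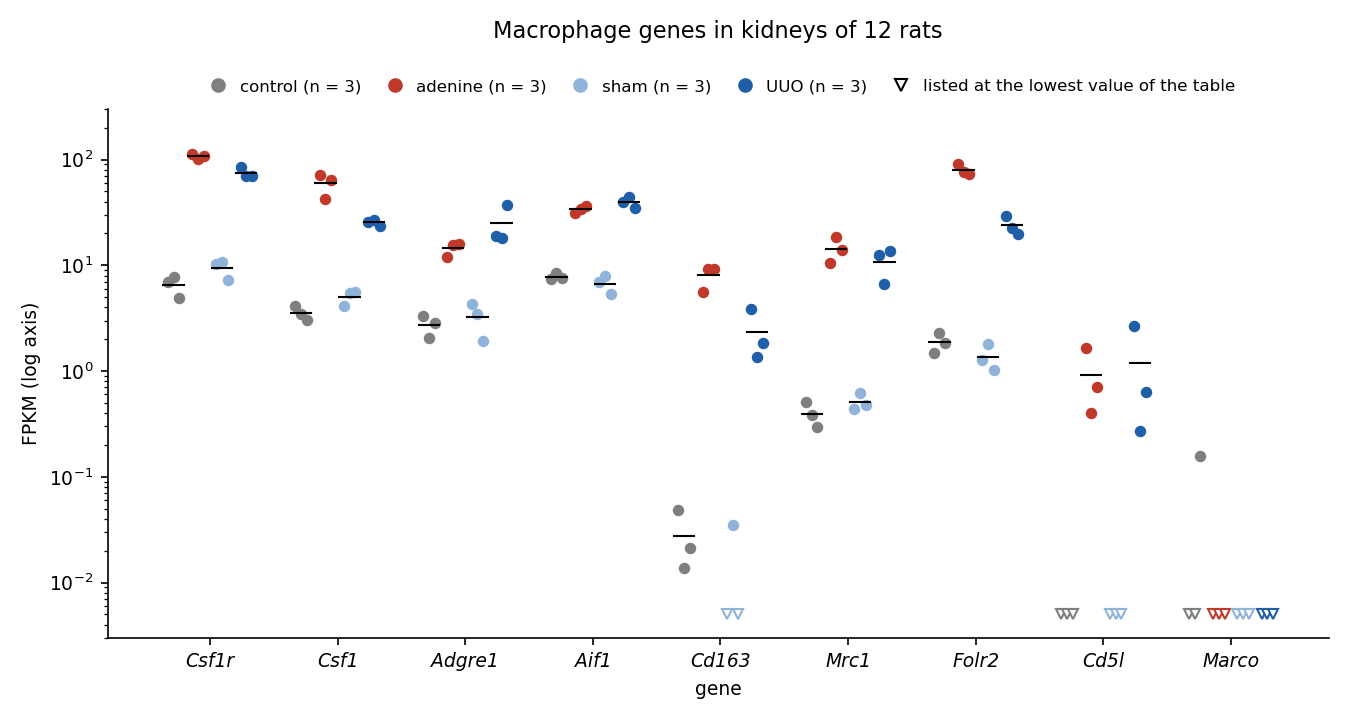
FPKM (log axis) of the 9 listed macrophage genes in each of 12 rat kidneys, with points for single rats, bars for the group mean (left out where a sample is at the lowest value) and open triangles for samples listed at the lowest value of their table. From Csf1r to Folr2, all diseased samples lie above the undiseased samples of the same model, while Cd5l is above the lowest value only in diseased kidneys and Marco in 1 control sample.

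Csf1r encodes the receptor on which monocytes and macrophages depend. Its FPKM was 7.00, 7.70 and 4.96 in control rats and 114, 101 and 108 in adenine rats. In the adenine group it was the highest of the 9 genes in every rat, and its 3 values differed by little. The log2 fold change was 4.04 (limma, SE 0.17, adjusted p = 2.61e-05), a 16.4-fold ratio of mean FPKM. In the sham samples FPKM of Csf1r was 10.4, 10.8 and 7.18, and in UUO rats 84.1, 69.2 and 69.6. Here too it was the highest gene of the set in every diseased rat, with a log2 fold change of 2.98 (limma, SE 0.17, adjusted p = 2.62e-05).

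Csf1, its ligand, is made by tubular epithelium, fibroblasts and other cells rather than being a marker of macrophages themselves. FPKM of Csf1 was 4.11, 3.45 and 3.05 in control rats and 71.7, 42.4 and 64.7 in adenine rats. The adenine rats spread widely, yet the lowest of them was far above all control rats. The log2 fold change of 4.01 (limma, SE 0.22, adjusted p = 4.07e-05) was close to that of its receptor. In the other table, FPKM of Csf1 was 4.11, 5.44 and 5.62 in sham rats and 25.9, 26.8 and 23.7 in UUO rats. The groups were apart and the UUO rats nearly alike, with a smaller log2 fold change of 2.32 (limma, SE 0.14, adjusted p = 3.17e-05).

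Adgre1 encodes the adhesion receptor F4/80. Its FPKM was 3.30, 2.07 and 2.84 in control rats and 11.9, 15.6 and 15.8 in adenine rats, with a log2 fold change of 2.37 (limma, SE 0.21, adjusted p = 0.000184). In the sham samples it was 4.27, 3.46 and 1.94, and in UUO rats 18.9, 18.2 and 37.5. The third UUO rat stood well above the other two, and the SE of the log2 fold change of 2.90 was 0.37 (limma adjusted p = 0.000528). Without that rat the log2 fold change of Adgre1 was 2.56, and over all single samples left out it lay between 2.56 and 3.13 in this model.

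Aif1 encodes a calcium-binding protein of the macrophage cytoskeleton. FPKM of Aif1 was 7.38, 8.54 and 7.53 in control rats and 31.4, 34.3 and 36.0 in adenine rats. These groups were tight and well apart, and the log2 fold change of 2.10 (limma, SE 0.11, adjusted p = 3.61e-05) was the smallest of the 7 genes in the adenine model. In the sham samples FPKM was 6.90, 7.94 and 5.31 and in UUO rats 40.0, 44.0 and 34.7, a log2 fold change of 2.55 (limma, SE 0.17, adjusted p = 3.99e-05).

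Of the scavenger receptors, Cd163, which takes up complexes of hemoglobin and haptoglobin, was nearly undetected in undiseased kidneys. FPKM of Cd163 was 0.0481, 0.0136 and 0.0210 in control rats and 5.63, 9.31 and 9.15 in adenine rats. In the sham samples it was listed at the lowest value, 0.0001, in 2 rats and at 0.0348 in 1, and in UUO rats it was 3.83, 1.36 and 1.82. The groups were thus far apart in both models, and the size of the change rests on undiseased values below the added 0.1. Its log2 fold change was 5.97 (limma, SE 0.29, adjusted p = 2.81e-05) in the adenine model and 4.33 (limma, SE 0.44, adjusted p = 0.000184) in the UUO model. With 0.01 added instead, these became 7.81 and 7.00, and with 1 added, 3.11 and 1.65, the last of which missed the fold-change threshold.

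Mrc1 encodes the mannose receptor, which binds sugars on glycoproteins and microbes and is also made by some endothelial cells. Its FPKM was 0.511, 0.383 and 0.296 in control rats and 10.5, 18.6 and 14.0 in adenine rats, a log2 fold change of 4.85 (limma, SE 0.27, adjusted p = 4.49e-05). FPKM of Mrc1 in sham rats was 0.438, 0.626 and 0.480, and in UUO rats 12.4, 6.60 and 13.5. The second UUO rat was the lowest of its group but still far above every sham rat, and the log2 fold change was 4.10 (limma, SE 0.31, adjusted p = 5.97e-05).

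Marco, a scavenger receptor for bacteria and particles that is known from alveolar and splenic macrophages, did not take part in these rises at a level that was listed. It was at 0 in 2 control samples and in all 3 adenine samples, at 0.158 FPKM in the other control rat, and at 0.0001, the lowest value of the table, in all 6 sham and UUO samples. No test was made and no depth is known, so these values give no limit on its level.

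Folr2 encodes folate receptor beta, a marker of resident macrophages. Its FPKM was 1.49, 2.29 and 1.86 in control rats and 91.4, 76.1 and 72.8 in adenine rats. With a log2 fold change of 5.35 (limma, SE 0.18, adjusted p = 1.89e-05), Folr2 had the smallest adjusted p of the set in this model, and the ratio of mean FPKM was 42.6. In the sham samples FPKM was 1.27, 1.80 and 1.02, and in UUO rats 29.4, 22.3 and 19.6, a log2 fold change of 4.04 (limma, SE 0.24, adjusted p = 2.83e-05). The groups did not overlap in either model, and all adenine rats lay above all UUO rats, although the 2 tables were made separately.

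Cd5l, a secreted scavenger protein also known as AIM, was listed at the lowest value in all 3 control and all 3 sham samples. In the adenine samples its FPKM was 1.67, 0.402 and 0.701, and in UUO rats 2.69, 0.271 and 0.635. It was thus listed above the lowest value in all 6 diseased kidneys, at widely spread levels with the first rat of each group the highest. Since 2 of 6 samples in each table reached an FPKM of 0.5, Cd5l was not tested, and no fold is given against groups at the lowest value.

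The order of levels within groups was compared on FPKM, which is scaled by transcript length. In the control group Aif1 and Csf1r, at mean FPKM of 7.82 ± 0.63 (SD, n = 3) and 6.55 ± 1.42, overlapped, as did Csf1 and Adgre1 at 3.54 ± 0.535 and 2.74 ± 0.622. Folr2 followed at 1.88 ± 0.401, overlapping with Adgre1, and Mrc1 at 0.396 ± 0.108. In the sham group the order was Csf1r at 9.45 ± 1.97, Aif1 at 6.72 ± 1.33, Csf1 at 5.05 ± 0.824, Adgre1 at 3.22 ± 1.18, Folr2 at 1.36 ± 0.402 and Mrc1 at 0.515 ± 0.0990. Csf1r and Aif1, Aif1 and Csf1, and Csf1 and Adgre1 overlapped as neighbours there. In the adenine group Folr2, at 80.1 ± 9.93, stood second after Csf1r at 108 ± 6.11 and did not overlap with it, and Csf1 at 59.6 ± 15.3 came next. Aif1 at 33.9 ± 2.34 was clear of its neighbours, while Adgre1 at 14.5 ± 2.22 and Mrc1 at 14.4 ± 4.06 overlapped. In the UUO group Csf1r at 74.3 ± 8.50 and Aif1 at 39.6 ± 4.70 were followed by Csf1 at 25.5 ± 1.61, Adgre1 at 24.9 ± 10.9 and Folr2 at 23.8 ± 5.04, which overlapped with each other, and Adgre1 of UUO rat 3 also lay above the lowest Aif1 value of the group.

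The rises were compared between the models through the difference of the log2 fold changes (adenine minus UUO), with the standard errors of both fits combined and p values adjusted over the 13486 genes tested in both tables. None of the 7 members differed by at least 2 on the log2 scale, a size that 2.88% of the genes reached with an adjusted p under 0.05, and 5 members had an unadjusted p under 0.05. By adjusted p alone, 4 of 7 had the larger rise in the adenine model, which was the case for 5.25% of all genes, and no member had the larger rise in the UUO model, against 21.7% of all genes. The difference was 1.69 for Csf1 (SE 0.26, adjusted p = 0.000951 from the limma fits), 1.06 for Csf1r (SE 0.25, adjusted p = 0.00748 from the limma fits), 1.31 for Folr2 (SE 0.30, adjusted p = 0.00740 from the limma fits) and 1.64 for Cd163 (SE 0.53, adjusted p = 0.0348 from the limma fits). The difference of Cd163 rested on the added 0.1, since with 0.01 added it was 0.81 with an adjusted p of 0.572 from the limma fits. It also missed the threshold without control rat 2, control rat 3 or sham rat 2, with adjusted p between 0.0514 and 0.0761 from the limma fits.

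For the other 3 members the difference did not pass the test. It was 0.75 for Mrc1, with a 95% interval from -0.14 to 1.63, -0.52 for Adgre1 (-1.45 to 0.40) and -0.45 for Aif1 (-0.89 to -0.01). The interval of Aif1 lies just below 0 because it is not adjusted for the number of genes, and its adjusted p was 0.113 from the limma fits.

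**Figure D2:**
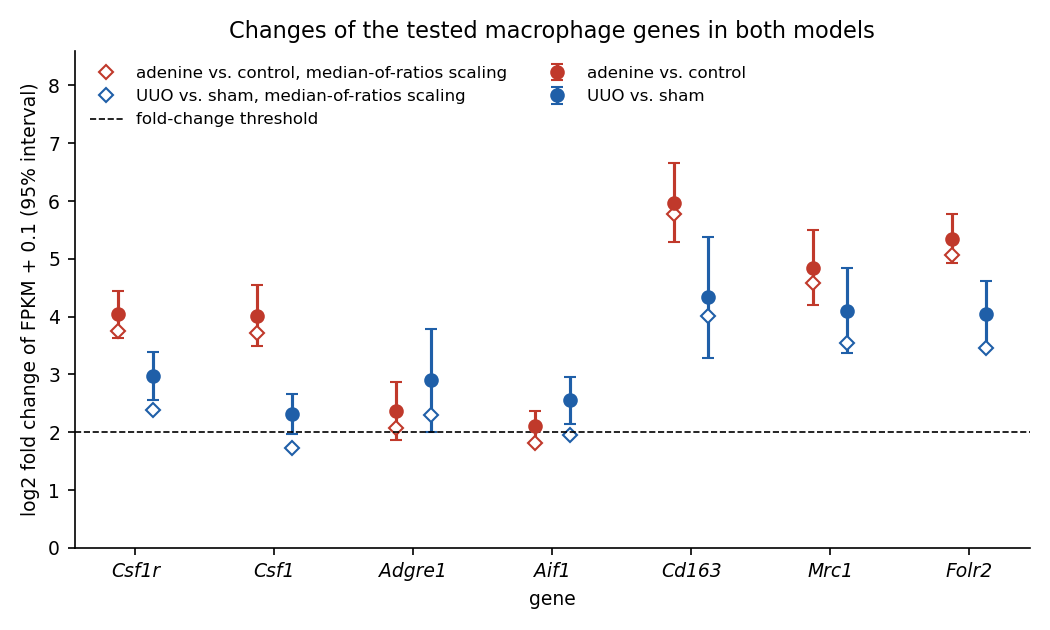
Log2 fold change on the FPKM + 0.1 scale of the 7 tested macrophage genes in the adenine and UUO models, with filled points for the limma estimate, bars for its 95% interval and open diamonds for the estimate after median-of-ratios scaling. Cd163, Folr2 and Mrc1 have the largest values in both models, and after scaling Aif1 (1.81 and 1.96) and Csf1 in the UUO model (1.73) lie below the fold-change threshold of 2.

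Levels relative to Csf1r were examined within each sample, as log2(FPKM + 0.1) of a gene minus that of Csf1r, to see which genes rose more or less than the receptor of the lineage. Of the 6 other tested members, 3 were higher relative to Csf1r in all diseased samples than in any undiseased one, namely Cd163, Mrc1 and Folr2, and this was so in both models. Of all other tested genes, 0.832% in the adenine and 1.79% in the UUO model were higher relative to Csf1r in this way. Cd163 and Mrc1 were tested only because their diseased samples passed the minimum FPKM. Their place among the 3 thus follows in part from that filter. In each model 2 members were lower without overlap, Adgre1 and Aif1 in the adenine model and Csf1 and Aif1 in the UUO model, against 95.3% and 87% of all other tested genes. With 3 rats against 3, the smallest p of an exact two-sided permutation test is 0.1, and each of these had that p. The largest fall was that of Aif1 in the adenine model, from 0.27 ± 0.28 (SD, n = 3) in the control group to -1.67 ± 0.16 in the adenine group. In the UUO model the corresponding means of Aif1 were -0.48 ± 0.086 and -0.91 ± 0.22.

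Adgre1 relative to Csf1r went from -1.23 ± 0.55 in the control group to -2.90 ± 0.30 in the adenine group, whereas in the UUO model it was -1.57 ± 0.29 and -1.65 ± 0.67 with overlapping groups. The third UUO rat, at -0.89, lay above all sham rats and the other 2 UUO rats below them. Csf1 kept pace with its receptor in the adenine model, at -0.86 ± 0.24 and -0.89 ± 0.32, and in the UUO model it was -0.88 ± 0.49 and -1.54 ± 0.16. Folr2 rose relative to Csf1r by 1.31 in the adenine and 1.06 in the UUO model, Cd163 by 1.93 and 1.35, and Mrc1 by 0.81 and 1.12. The values of Cd163 and Mrc1 depend on the added 0.1, and with 1 added, 1 of 6 members in place of 3 was higher relative to Csf1r in each model. Cd163 then turned around and was lower relative to Csf1r without overlap in both models, which made 3 lower members in place of 2. The direction of Cd163 relative to Csf1r is thus not settled by these values. Against Adgre1 or Aif1 as the reference in the adenine model, 5 of 6 members were higher without overlap. In the UUO model it was 2 of 6 against Adgre1 and 4 of 6 against Aif1. Folr2 relative to Adgre1 overlapped between sham and UUO rats, so its rise without overlap in that model depends on the reference gene.

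**Figure D3:**
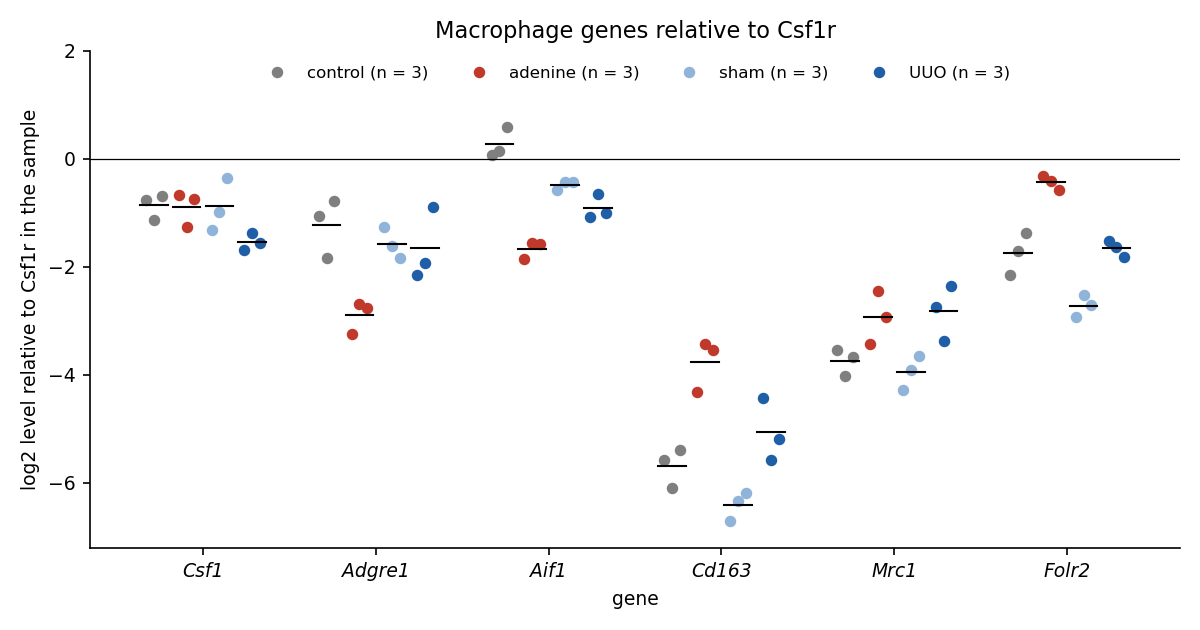
Log2 level of 6 macrophage genes relative to Csf1r in the same kidney, from FPKM + 0.1, with points for single rats and bars for group means. Folr2, Cd163 and Mrc1 lie higher in all diseased samples than in the undiseased samples of their table, and Aif1 lies lower, with its larger shift in the adenine model. With 1 in place of 0.1 added to FPKM, Cd163 lies lower instead in both models.

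Other genes of the lineage were taken as 4 lists. Some of their upregulated DEGs had an FPKM under 0.5 in at least 1 undiseased rat and were tested only through their diseased samples, so that the counts of the lists follow in part from the minimum FPKM. In the adenine model these were 2 of 5 DEGs for the ligand and transcription factors, 1 of 8 for the signalling genes, 4 of 9 for the scavenger receptors and 3 of 8 for the further resident genes, and in the UUO model 2 of 4, 0 of 6, 2 of 8 and 2 of 8. Of 13 genes for the second CSF1R ligand and macrophage transcription factors, all tested, 5 were upregulated DEGs by limma in the adenine and 4 in the UUO model, with median log2 fold changes of 1.03 and 1.18, and without any 1 of the UUO rats 2 in place of 4 were DEGs. In the adenine model it was 3 in place of 5 without control rat 2 or adenine rat 1 or 3, and 2 without adenine rat 2. Spi1, the gene of PU.1, rose from 2.72 ± 0.339 (SD, n = 3) to 42.7 ± 11.5 FPKM in the adenine model (log2 fold change 3.89, SE 0.21) and Runx1, which encodes a factor of blood cell development, changed by 3.82 and 3.78 on that scale in the adenine and UUO models. Irf8, a monocyte factor, rose from 4.87 ± 0.464 to 54.9 ± 7.11 FPKM in the UUO model, the second largest change of the list there. At the lower end were Cebpb and Nr1h3 in the adenine model, with log2 fold changes of -1.42 and -0.51, and Tfec and Mitf in the UUO model, with -0.89 and -0.40, none of them a DEG. In the respective other model Cebpb was at 1.18, Tfec at 0.45 and Mitf at 1.03, while Nr1h3 was at -0.33. Undiseased levels of Cebpb also differed, at 20.7 ± 3.74 FPKM in control and 2.86 ± 0.966 in sham rats. Cebpb encodes a factor of monocyte maturation, Nr1h3 a sterol receptor, and Tfec and Mitf related factors of the myeloid lineage. Il34, named after its values were seen, had log2 fold changes of 0.53 (limma, SE 0.26, adjusted p = 0.127) and 1.13 (limma, SE 0.12, adjusted p = 0.000253), and neither reached the fold-change threshold that its fellow ligand Csf1 passed in both models.

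Signalling genes that act below CSF1R in myeloid cells gave 8 upregulated DEGs of 10 in the adenine and 6 of 10 in the UUO model by limma, and the median log2 fold changes were 3.27 and 2.37. Fgr, a Src family kinase, and Vav1, an exchange factor of blood cells, had the largest changes in the adenine model, at 4.73 and 4.32. Vav1 was at 3.05 in the UUO model. The smallest changes were those of Grb2, an adaptor used by most cell types, at 1.05 and 0.74, of Plcg2 in the adenine model at 1.37 and of Cbl in the UUO model at 1.24.

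For other scavenger and phagocytic receptors, 9 of 12 tested genes in the adenine and 8 of 11 in the UUO model were upregulated DEGs by limma, with medians of 3.38 and 2.63. Cd68, a lysosomal marker of phagocytes, went from 5.04 ± 0.785 to 388 ± 120 FPKM in the adenine model, a log2 fold change of 6.20 (SE 0.25). Siglec1, a sialic acid receptor of resident macrophages, rose by 4.13 (SE 0.50) on the log2 scale in the adenine model and by 5.37 (SE 0.72) in the UUO model, where the lectin receptor gene Clec10a followed at 4.15. Mean FPKM of Siglec1 was 0.123 in control and 0.112 in sham rats, so the size of its change rests on values near the added 0.1. Its diseased rats spread widely, at 4.57 ± 3.48 in the adenine and 10.5 ± 7.41 in the UUO group. Scarf1 and Lyve1 had the smallest changes in the adenine model, at 1.08 and 1.66. Mertk, a receptor for apoptotic cells, was at 9.54 ± 1.89 FPKM in sham and 9.43 ± 1.75 in UUO rats, a log2 fold change of -0.013 (limma, SE 0.20, adjusted p = 0.958). Cd36 in both tables and Clec4f in the first had no entry under those symbols.

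Among 12 further genes of resident macrophages, 8 were upregulated DEGs by limma in each model, with medians of 2.71 and 3.11. Itgam, which encodes the integrin chain CD11b, rose from 0.200 ± 0.0935 to 46.5 ± 13.9 FPKM in the adenine model, a log2 fold change of 7.28 (SE 0.33). C1qb, a chain of the complement protein C1q that macrophages secrete, followed at 4.40, and in the UUO model C1qb and Tmem119 had the largest changes at 4.03 and 4.11. Itgam was at 3.70 (SE 0.24) in the UUO model. Mean FPKM of Itgam was 0.200 in control and 0.247 in sham rats. The size of its changes thus rests on values near the added 0.1. Selenop, a selenium carrier that tubular cells also make, had log2 fold changes of -0.76 and -1.20, and Cd81, a membrane protein of many cell types, was at 0.33 in the adenine model.

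**Figure D4:**
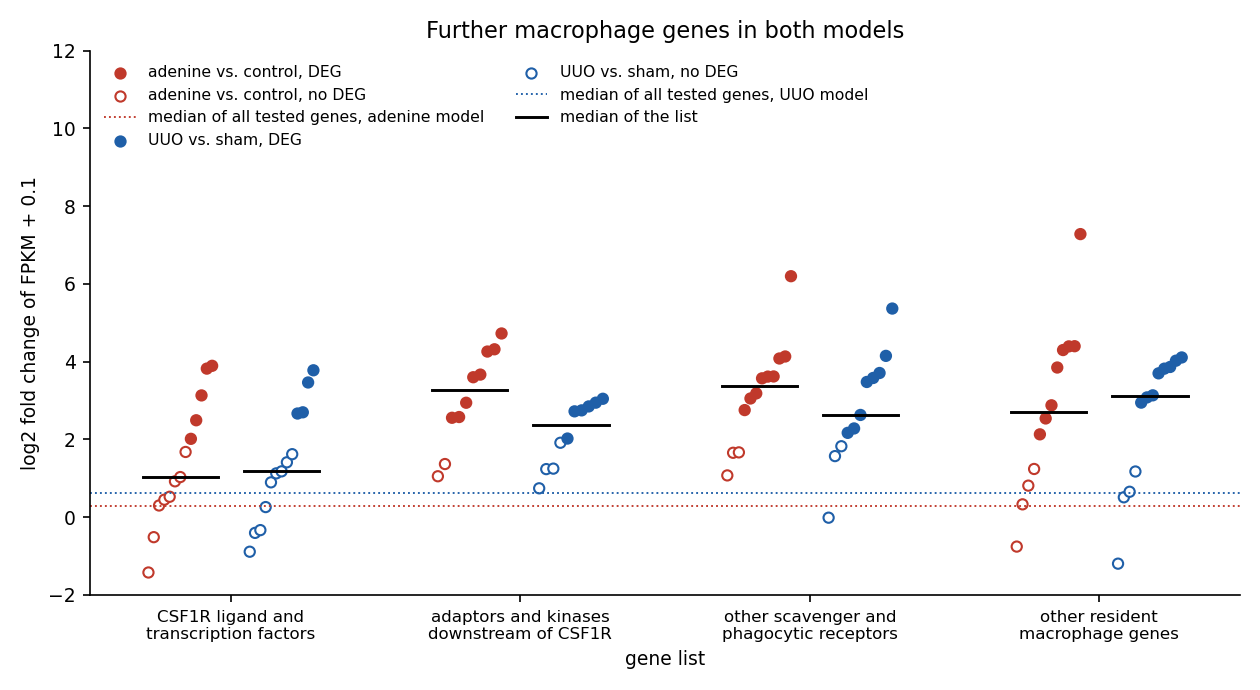
Log2 fold change on the FPKM + 0.1 scale of the tested genes of 4 further macrophage lists in the adenine and UUO models, filled where the gene was a DEG, with black bars for list medians and dotted lines for the median of all tested genes. All list medians lie above those of all genes (0.30 and 0.62), and none of the downward genes is a DEG.

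Many markers of other cells changed as well, not all of them in the direction of the members, and their part in the results was not tested. Most of the leukocyte markers that were DEGs in either model were tested only through their diseased samples, as were all 4 neutrophil markers in the UUO model. The leukocyte gene Ptprc had an FPKM between 2.55 and 3.15 in control rats and between 19.6 and 38.8 in adenine rats, and between 1.24 and 2.30 in the sham and 8.91 and 19.1 in UUO rats. For monocytes, 4 of 5 tested markers in the adenine and 3 of 3 in the UUO model were upregulated DEGs, with F13a1 leading in the adenine model at 4.90. The summed FPKM of the listed monocyte markers was 53.1 to 96.0 in control and 93.5 to 161 in adenine samples, and 2.58 to 4.89 in sham and 16.0 to 22.6 in UUO samples, where Plac8 had no entry. The markers of neutrophils gave 3 of 3 and 4 of 4, and their summed FPKM rose from at most 2.44 to at least 14.0 in the adenine model and from at most 1.57 to at least 6.91 in the UUO model. Of T cell markers, 3 of 5 and 5 of 5 were upregulated DEGs, and the summed FPKM reached 33.1 in the adenine group and 127 in the UUO group from at most 6.69 and 7.80. Dendritic cell markers gave 1 of 4 and 3 of 5, with summed FPKM of up to 9.05 in control, 17.4 to 19.7 in adenine, 7.54 to 10.2 in sham and 24.6 to 29.7 in UUO rats. B cell markers gave 0 of 1 and 2 of 2, with summed FPKM of at most 3.50 in the first table and 6.54 in the second.

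Endothelial cells also express Mrc1, and blood endothelial markers gave 0 of 3 upregulated DEGs in the adenine and 1 of 3 in the UUO model, with summed FPKM between 17.8 and 23.8 in control, 15.7 and 22.7 in adenine, 24.7 and 37.8 in sham and 61.9 and 84.2 in UUO samples. Lymphatic endothelial markers gave 1 of 4 and 3 of 4, while Prox1, the defining transcription factor, had log2 fold changes of 0.023 and -1.06 that did not pass the test. Their summed FPKM was 7.38 to 13.2 in control, 30.2 to 52.0 in adenine, 12.7 to 19.8 in sham and 71.4 to 94.5 in UUO rats, and Lyve1 stands in this list as well as among the scavenger receptors. Fibroblast markers gave 2 of 4 and 3 of 4, and 2 of 4 proximal tubule markers, Lrp2 and Slc34a1, were downregulated DEGs in each model. Cubn had log2 fold changes of -0.34 in the adenine and -0.48 in the UUO model. Slc5a2 went the other way, at 2.78 and 0.047, and neither gene passed the test in either model. Mean FPKM of Slc5a2 was 5.48 ± 7.24 in control and 17.5 ± 9.42 in adenine rats. The summed FPKM of the fibroblast markers was 50.4 to 73.3 in control and 288 to 385 in adenine samples, and 39.5 to 51.6 in sham and 603 to 1075 in UUO samples. For the proximal tubule these were 599 to 1194 and 35.4 to 190 in the first table and 803 to 1040 and 82.5 to 203 in the second. Slc34a1 had the highest mean FPKM of the 4 proximal tubule markers in every group, so it weighs most in these sums. No marker of these lists was at the lowest value in all 6 samples of a table.

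Genes with a pattern most like that of each member were sought by Pearson correlation of log2(FPKM + 0.1), centred within each table, over the 12 samples. The samples share the step from undiseased to diseased kidneys within each table, and between 784 and 1934 of 13486 genes had a value of at least 0.95 with a given member. Nearest to Csf1r were Apobec1, Bcl2a1 and C5ar1, at 0.998, 0.998 and 0.996. Nearest to Folr2 were Tgfb1, Tnfaip8l2 and Bcl2a1, at 0.998, 0.997 and 0.997. For Cd163 they were Pim1, RT1-DMb and Cd200r1, each at 0.992, and for Mrc1 they were Ssr1, Fadd and Rcan3, at 0.997, 0.995 and 0.994. Csf1 was closest to Pik3r5, Asap1 and Slc37a2, each at 0.997, Aif1 to Cnp, Numbl and Tbrg1, at 0.997, 0.995 and 0.995, and Adgre1 to Zfp143, Sin3a and Eif4b, at 0.989, 0.986 and 0.985.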

How the data were processed

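Kidney RNA of 12 rats was sequenced as poly(A) libraries, and samples were grouped by their labels (adenine at 220 mg/kg per day). By the methods, the authors removed low-quality bases, mapped the reads, merged transcripts and deposited FPKM per gene in 2 tables, 1 column per rat. The submitters' processing notes name cutadapt 1.9, HISAT2 2.0.4, StringTie 1.3.4d, edgeR and DESeq2. The genome build and annotation are not given in the sources used here, and whether counting used strand is not stated. FPKM is relative to all mapped fragments, so a change in abundant genes shifts all others.

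Here, log2(FPKM + 0.1) was fitted per table with limma 3.58.1 (lmFit, eBayes with a trend) in R 4.3.3, for entries reaching an FPKM of 0.5 in 3 or more samples. The log2 fold changes of both models were compared by a t statistic whose degrees of freedom were those of the 2 fits added up. Exact permutation tests were two-sided, with scipy 1.17.1 in Python 3.11.15. The fits were tested on simulated data. Precision is given by the spread of 3 rats. Members and lists were chosen with earlier results of these data known. Named genes are the members, the 2 largest and 2 smallest changes of each list and, per member, the 3 most correlated genes. Some genes that this rule names are not reported here. The alternatives were other pseudocounts, filters and scalings, eBayes without the trend, a replicate block, no fold-change threshold, the log2 ratio of mean FPKM, other reference genes and leaving out each sample. Those for the lists, and the pseudocounts and left-out samples for levels relative to Csf1r, were added after seeing the data.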

Additional observations from a re-analysis of the deposited data

Results flagged for a closer look

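The log2 fold changes of 4 macrophage genes differed between the models by a test of the difference itself (adenine minus UUO, adjusted p from the limma fits, n = 3 per group). The difference was 1.69 for Csf1 (adjusted p = 0.000951), 1.06 for Csf1r (adjusted p = 0.00748), 1.31 for Folr2 (adjusted p = 0.00740) and 1.64 for Cd163 (adjusted p = 0.0348), each by the same limma fits. For all 4 genes the rise was larger in the adenine model. The call of Cd163, which was tested only through its diseased samples, was lost with 0.01 added to FPKM (difference 0.81, limma adjusted p = 0.572), without the filter (limma adjusted p = 0.064), and without control rat 2, control rat 3 or sham rat 2 (limma adjusted p between 0.0514 and 0.0761). The models differ in agent, duration, surgery and sequencing table together, and these cannot be told apart.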

How the results depend on the processing

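No tested member reversed the direction of its log2 fold change, or of its difference between the models, under any alternative. The level of Cd163 relative to Csf1r did reverse with 1 added to FPKM. Other filters, eBayes without the trend and the replicate block leave the log2 fold change of a member unchanged by construction. Only the adjusted p could alter a call there, and the log2 ratio of mean FPKM was judged with the adjusted p of the main fit. Many of the fold changes counted next thus could not differ in size. Of 218 member fold changes under an alternative, 211 stayed on the same side of the thresholds and 7 no longer reached a log2 fold change of 2. These were Aif1 in the adenine model with 1 added to FPKM, after quantile normalization and after median-of-ratios scaling (1.98, 1.94 and 1.81), Aif1 after UUO under the last of these (1.96), Csf1 in the UUO model with both scalings (1.73 and 1.75) and Cd163 in the UUO model with a pseudocount of 1 (1.65). With each sample left out in turn, 6 to 7 members were DEGs in each model, since Cd163 falls below the filter once 1 diseased sample is missing. Without the filter, 8 of 9 listed members were DEGs in each model, as Cd5l is then tested. The number of members that differed between the models by at least 2 was 0, and it was 1 with quantile normalization (Csf1, 2.09) and 4 without the fold-change threshold. Of the members higher relative to Csf1r in the adenine model, 3 became 5 with Adgre1 or Aif1 as the reference and 1 with a pseudocount of 1. The 3 in the UUO model became 2 with Adgre1 as the reference, where Folr2 overlapped, 4 with Aif1 and 1 with that pseudocount. The 2 members lower relative to Csf1r became 0 against Adgre1 and 0 against Aif1 in each model, and 3 in the UUO model without UUO rat 3. With a pseudocount of 1 they became 3 in each model, as Cd163 went from higher to lower without overlap. DEGs among the CSF1R ligand and transcription factors fell from 5 to 3 in the adenine model with a pseudocount of 1, without control rat 2 or without adenine rat 1 or 3, and to 2 without adenine rat 2. In the UUO model they fell from 4 to 2 without any 1 of the UUO rats. Without a diseased rat of either model 11 in place of 13 genes of that list passed the filter. The cause of the other changes was not tested.

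The rats of a model share replicate numbers but are different animals. Deviations of same-numbered samples correlated at between -0.12 and -0.049 in the adenine and between 0.050 and 0.11 in the UUO model. For sham rats 1, 2 and 3 the highest correlation with a UUO rat of another number was 0.016, -0.025 and -0.028. Same-numbered sham and UUO samples were thus slightly more alike, and whether they shared a batch was not tested. In the main fits the numbers were not taken as pairs. With a replicate block, 7 members were DEGs in each model, and by adjusted p alone 3 in place of 4 differed between the models, Cd163 having an adjusted p of 0.0734 by limma. With samples left out in turn this count was 3 to 4, and without any 1 diseased rat Cd163 was not tested.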

Other observations

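Among the diseased kidneys, the members did not rank the rats alike. The first UUO rat had the highest FPKM of the 3 for Csf1r (84.1), Folr2 (29.4), Cd163 (3.83) and Cd5l (2.69), and the third for Adgre1 (37.5) and Mrc1 (13.5). In the adenine group the first rat was the highest for Csf1r (114), Csf1 (71.7), Folr2 (91.4) and Cd5l (1.67) and the lowest for Cd163 (5.63), Mrc1 (10.5), Adgre1 (11.9) and Aif1 (31.4). Deviations from the group means on the log2(FPKM + 0.1) scale correlated with those of Csf1r over the 12 samples at 0.61 for Folr2 and 0.59 for Aif1, and at 0.16 to 0.31 for the other 4 tested members. These values rest on 3 rats per group and are given as a description.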
